A study of Drosophila melanogaster with 21 samples.

Results

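Brains of Drosophila females carrying the mutant 2 allele of CG11247 were compared with brains of the parent strain. The groups compared hold 4 of the 21 libraries in the series, chosen by genotype label: 2 mutant 2 libraries and 2 wild-type libraries. CG11247, also called Saft, is described in the design text as a transcription factor. Per the labels' protocols, the wild type was the isogenised white parent, and CRISPR-Cas9 was used in that strain to delete 2 bp from exon 2 and shift the reading frame (mutant 2). A second frame-shift allele, mutant 1, lacks 1 bp of exon 1, and its 2 brain libraries served as a further comparison. They also entered the same fit and its estimate of the spread, so the brain p-values draw on all 6 brain libraries. The ovary libraries of mutant 2 and wild type, 3 each, were used to follow the same allele in another tissue. Every group was white-eyed females, 3 to 4 days old, mated for 2 days with yeast and kept at 25 °C. Each brain library pooled 40 brains and each ovary library 5 ovary pairs. Per the labels, each mutant was kept as 1 line over the TM3,Sb balancer, a rearranged chromosome 3 with a dominant bristle marker. The sources used here do not state whether the dissected females were homozygous. The replicates are called biological in the design text, with no word on separate dissections, and the p-values below cover only the variation among these libraries.

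CG11247 lies on the minus strand of chromosome 3L, at 21724326 to 21728806 of build BDGP6. The mutant 2 allele is shown because it defines the mutant group. The sequence is copied from the labels, which place the deletion in exon 2. Capitals mark the bases on either side of the deleted 2 bp, with 18 bases shown to the left of the deletion and 17 to the right.

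CG11247 mutant 2: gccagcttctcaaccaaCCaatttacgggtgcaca

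The gene groups below have separate roles. Cytoplasmic ribosomal proteins build the ribosome that translates nuclear messages, and oxidative phosphorylation subunits, encoded in part by the mitochondrial genome, make ATP in mitochondria. Neuropeptides are cut from larger precursors in neurons and endocrine cells and act through receptors on other cells. Cuticle proteins, chitin enzymes and zona pellucida domain proteins form the extracellular matrix on the apical face of epidermis and trachea. Laminins and collagen IV form basement membranes, and hemocytes, the blood cells of the fly, are a known source of several of these proteins.

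Brain libraries held 39.0 to 45.6 M estimated counts, and the log2 levels of replicates correlated at 0.995 to 0.996 across genes. All 12 neuron markers were tested, and their summed level was 14990 and 14800 counts per M (CPM) in wild type against 16000 and 14400 CPM in mutant 2. Some genes differed widely between libraries of 1 genotype. The rhodopsin gene ninaE, a photoreceptor marker, stood at 307 and 34.4 CPM in the wild-type libraries and at 40.3 and 39.4 CPM in the mutant 2 libraries. Hsp70Aa, a heat shock gene, stood at 25.9 and 188 CPM in wild type and at 120 and 14.1 CPM in mutant 2. None of the 17 eye genes or 20 heat shock genes tested passed the test, and without wild-type library 1 a single heat shock gene was called lower.

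The targeted transcript itself was slightly more abundant in mutant 2. CG11247 measured 85.9 and 89.7 CPM in wild type and 110 and 103 CPM in mutant 2, with no overlap. The log2 change was 0.28 ± 0.05 (SE, n = 2 against 2, edgeR quasi-likelihood test, Benjamini-Hochberg adjusted p = 0.0301). In mutant 1 the gene measured 66.4 and 65.4 CPM, below wild type. The call for mutant 2 was lost without either wild-type library or either mutant 1 library, with an adjusted p of up to 0.284. Counts per gene do not show the deletion, so they check the label only by level.

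Across the 9880 genes tested, 2.96% were called at an edgeR adjusted p under 0.05, of which 220 were higher in mutant 2 (2.23%) and 72 lower (0.729%). The changes were asymmetric in size. Of the higher genes, 126 changed at least 2-fold, against 19 of the lower genes. The higher genes had a median level of 2.62 CPM in wild type and 10.9 CPM in mutant 2, and 69 of the 220 (31.4%) were under 1 CPM in wild type, compared with 11.4% of all genes tested. The lower genes had a median of 20.9 CPM in wild type and 13.6 CPM in mutant 2, and none was under 1 CPM in wild type. Genes near 0 CPM in wild type could pass the low-count filter only through a mutant group and had little room to be called lower. The filter and the floor therefore fix part of this contrast, which is a description. Calls were 173 higher and 36 lower without wild-type library 1, and 122 and 45 without wild-type library 2. They were 397 and 142 without mutant 2 library 1, and 282 and 112 without mutant 2 library 2. Both mutant 2 libraries lay above both wild-type libraries for 20.5% of the genes tested and below them for 19.1%.

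**Figure D1:**
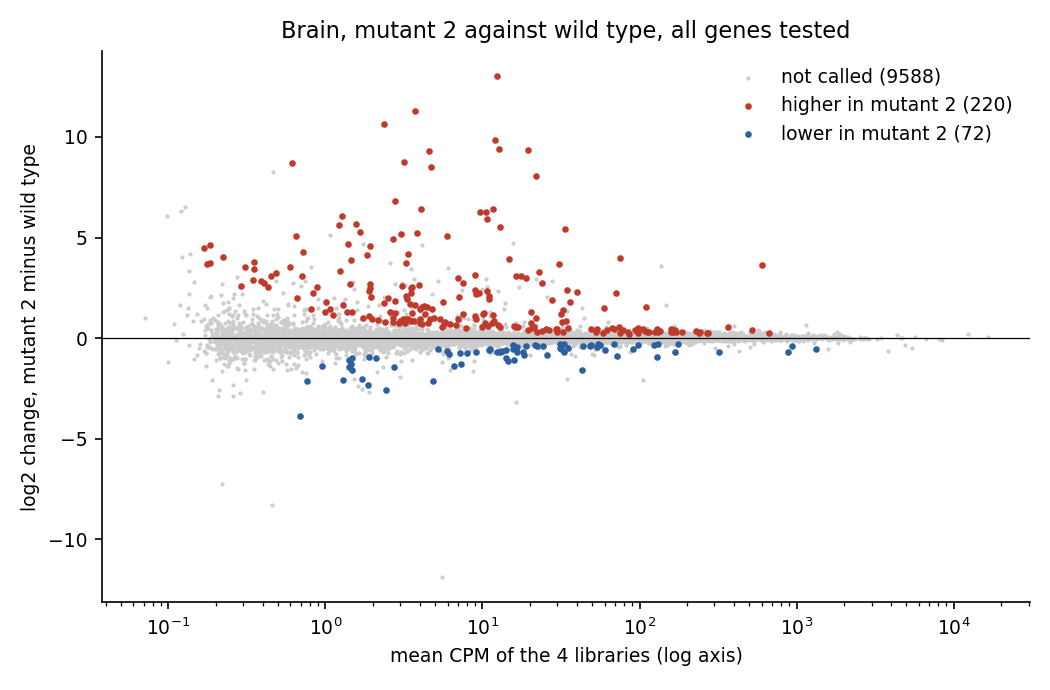
Each point is 1 of the 9880 genes tested, with the mean CPM of the 2 wild-type and 2 mutant 2 brain libraries on a log axis and the log2 change of mutant 2 minus wild type on the vertical axis. The 220 genes called higher (red) reach far larger changes than the 72 called lower (blue), while 9588 genes were not called.

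The largest increases were in genes that wild-type brains barely expressed. CG8172 had 0 counts in both wild-type libraries and 21.1 and 28.1 CPM in mutant 2, at least 708-fold higher when set against 3 counts over the wild-type group. Cpr56F, a cuticle protein gene, also had 0 counts in wild type and reached 6.8 and 8.0 CPM, at least 214-fold higher. Both mutant 2 libraries showed these transcripts and neither wild-type library did. Genes with so few wild-type counts, here and below, could pass the low-count filter only through a mutant group, so their calls are a description.

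CG7432 had 2 counts in wild type and 24.7 and 23.1 CPM in mutant 2, a ratio of 1042 with a 95% counting interval of 288 to 8609. Cpr62Bc, a further cuticle protein gene, had 3 counts in wild type and 26.7 and 24.0 CPM in mutant 2, a ratio of 739 (252 to 3585). For cysu, which encodes a haem peroxidase, 2 counts in wild type compared with 9.92 and 8.81 CPM, a ratio of 410 (113 to 3387). CG12607 and CG18641, each with 1 count in wild type, had ratios of 795 (142 to 31450) and 550 (98.3 to 21770). These intervals and bounds cover counting error only, and their width reflects how few wild-type reads there were.

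CG6026 had close replicates, at 0.186 and 0.137 CPM in wild type and 44.0 and 43.4 CPM in mutant 2, a log2 change of 8.06 ± 0.11 (adjusted p = 1.5e-09). CG8192 went from 0.0927 and 0.0227 CPM to 40.9 and 36.9 CPM. NT1, a neurotrophin of the Spätzle family and a ligand of Toll-type receptors, went from 0 and 0.0910 CPM to 5.71 and 5.23 CPM, a log2 change of 6.81 ± 0.47 (adjusted p = 0.00022). CG13643 rose from 0.232 and 0.296 CPM to 23.5 and 22.4 CPM. The forked gene f, whose product bundles actin in growing bristles, went from 0.209 and 0.273 CPM to 19.7 and 18.3 CPM, a log2 change of 6.28 ± 0.15 (adjusted p = 3.3e-08). The serine protease gene flz rose from 0.510 and 0.182 CPM to 22.4 and 19.4 CPM. These genes were chosen to be called, at a mean of at least 5 CPM in the higher group and without overlap. The 15 largest increases chosen in this way kept their calls in each alternative that was run.

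**Figure D2:**
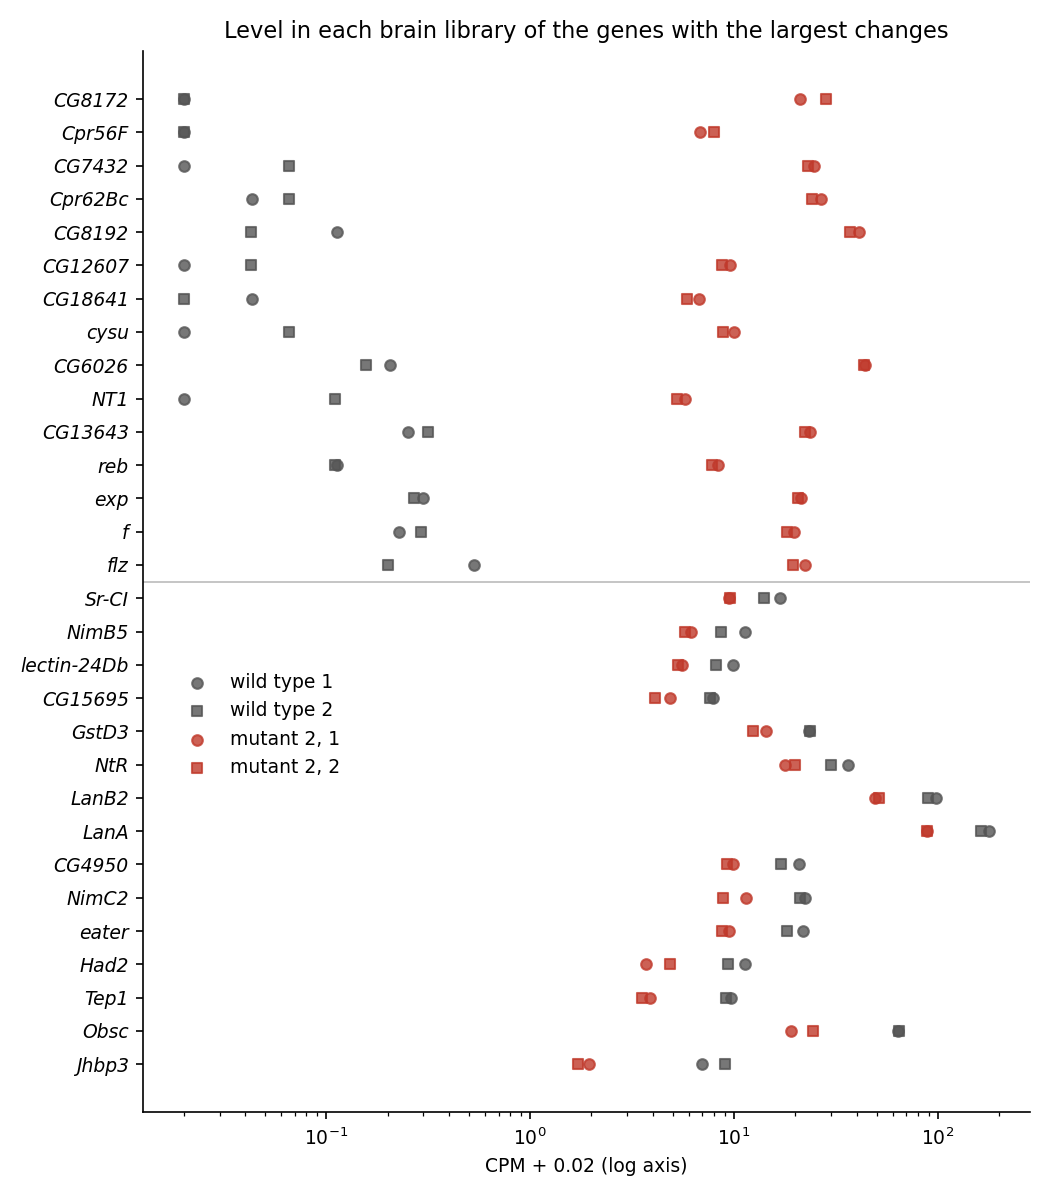
Points give the level of each gene in each wild-type (grey) and mutant 2 (red) brain library as CPM + 0.02 on a log axis. Genes were called, had a mean of at least 5 CPM in the higher group and did not overlap. Shown are the 15 higher and 15 lower of these with the largest changes. Above the line wild-type levels lie under 1 CPM and mutant 2 levels over 5 CPM, and below it the mutant 2 points lie to the left of wild type by smaller distances.

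The increases included genes of the apical matrix. Of 134 chitin and cuticle genes in the table, 46 passed the low-count filter and 10 of these rose, with none lower, where 2.23% of all genes tested were called higher. The median log2 change of the 46 was 0.17, beside -0.00 over all genes tested, and it varied with single libraries. It was 0.49 when wild-type library 1 was left out and 0.05 when wild-type library 2 was. It was 0.02, with 1 member lower, when mutant 2 library 1 was left out, and 0.10 when mutant 2 library 2 was. It was 0.11 without either mutant 1 library. The called count was 8 to 11 in these cases. Members silent in wild type could pass that filter only through a mutant group, so the count is a description. Besides Cpr56F and Cpr62Bc, the rise included reb and exp, a related pair of genes needed for chitin deposition. The reb transcript went from 0.0927 and 0.0910 CPM to 8.34 and 7.82 CPM (log2 change 6.41 ± 0.18, adjusted p = 7.5e-08). The exp transcript went from 0.278 and 0.250 CPM to 21.4 and 20.5 CPM (6.29 ± 0.16, adjusted p = 4.1e-08). The other members called were Cht6, Cht7, Cpr47Ef, Cpr62Ba, rtv and snu, and the smallest of the 10 changes was 0.44.

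Zona pellucida domain genes, which encode filament-forming proteins of the apical matrix, gave 5 higher of 9 tested of 17 in the table. Over all genes tested, 2.23% were called higher. Here too, members with few wild-type counts could pass the filter only through a mutant group, so the count is a description. The abundant member was dpy (dumpy), a giant protein that anchors epidermis to cuticle. Its level was 100 and 77.1 CPM in wild type and 1169 and 1063 CPM in mutant 2, a log2 change of 3.65 ± 0.13 (adjusted p = 1.6e-05). Both mutant 2 libraries lay far above both wild-type libraries. The qsm transcript rose from 1.78 and 1.84 CPM to 27.4 and 28.2 CPM (3.94 ± 0.08, adjusted p = 1.7e-08). For nyo and dyl, with 3 wild-type counts each, the ratios were 73.8 (24.9 to 360) and 36.5 (12.2 to 180). All 4 of these genes kept their calls in each alternative that tested them, and none of the 5 trachea markers tested was called.

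ImpE1, first known as a gene induced by the moulting hormone ecdysone, measured 23.9 and 25.6 CPM in wild type and 117 and 116 CPM in mutant 2 (log2 change 2.23 ± 0.06, adjusted p = 4.2e-08). It was the single member called of 21 ecdysone response genes tested, where 2.23% of all genes tested were called higher. The median log2 change of the 21 was 0.03. Of 94 glutathione transferase and cytochrome P450 genes tested, 4 were higher and 1 lower, beside 2.23% higher and 0.729% lower among all genes tested. Cyp6g1, a P450 known for its part in insecticide resistance, rose from 5.29 and 3.73 CPM to 15.6 and 19.2 CPM (1.95 ± 0.17, adjusted p = 0.00072). Cyp6g2, Cyp301a1 and Cyp12a5 rose by log2 changes of 0.93, 0.78 and 0.56. The call of Cyp12a5 was lost without wild-type library 2 (adjusted p = 0.136). GstD3 went the other way, from 23.3 and 23.7 CPM to 14.4 and 12.4 CPM (-0.81 ± 0.09, adjusted p = 0.00119). Reads of the near-identical GstD genes could be split by the counting, so its value is uncertain. In this list 7 members were lower without mutant 2 library 2, and 7 were higher without mutant 2 library 1.

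Cytoplasmic ribosomal protein genes were shifted upward by a small amount. Of 88 in the table, 83 were tested, and 13 were called higher and none lower, beside 2.23% and 0.729% of all genes tested. All 83 fitted changes were above 0, compared with 49.8% of all genes tested. The median log2 change was 0.26, with a range of 0.07 to 0.45. Of the 83, 75 had both mutant 2 libraries above both wild-type libraries, beside 20.5% of all genes tested. Their summed level was 19670 and 19060 CPM in wild type and 21240 and 24710 CPM in mutant 2, so the second mutant 2 library stood well above the first.

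RpL38, a protein of the large subunit, had the largest change among the called members, at 109 and 109 CPM in wild type and 145 and 154 CPM in mutant 2 (0.45 ± 0.05, adjusted p = 0.0018). RpL29 went from 147 and 142 CPM to 178 and 201 CPM (0.39 ± 0.08, adjusted p = 0.0386). RpS7, of the small subunit, went from 205 and 197 CPM to 244 and 270 CPM (0.35 ± 0.06, adjusted p = 0.014). RpL35A rose by 0.33 and RpL5 by 0.26, and the other called members were RpL21, RpL7, RpLP1, RpS14a, RpS15Aa, RpS20, RpS27 and RpS27A. The 13 called log2 changes ranged from 0.26 to 0.45. RpL3 and RpL22, among the most abundant members, had changes of 0.25 and 0.08 that did not pass the test. RpL22 measured 532 and 528 CPM in wild type and 521 and 598 CPM in mutant 2, so that its mutant libraries lay on either side of wild type.

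The size of the ribosomal shift depended on the library. The median over members of log2(CPM + 0.5) minus the wild-type mean was 0.14 in mutant 2 library 1 and 0.36 in library 2, against 0.02 and -0.02 in wild type and 0.16 and 0.10 in mutant 1. Without mutant 2 library 2 the median log2 change was 0.14 with 13 members called, and without mutant 2 library 1 it was 0.36 with 72 called. Leaving out a wild-type library, either one, left 1 member called. RpL29, RpL35A, RpL5 and RpS7 all lost their calls without either wild-type library, with adjusted p of up to 0.421. In mutant 1, tested against the same wild-type libraries, the median was 0.13 and no member was called, where 2.66% of all genes were. In the direct test of mutant 2 against mutant 1 no member was called either.

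Translation factors gave 2 higher of 46 tested, with a median of 0.09, where 2.23% of all genes tested were called higher. The elongation factor gene eEF1beta went from 85.5 and 75.2 CPM to 107 and 125 CPM (0.53 ± 0.09, adjusted p = 0.0171) and the initiation factor gene eIF1A from 146 and 149 CPM to 186 and 175 CPM (0.29 ± 0.06, adjusted p = 0.0271). Both calls were lost without wild-type library 2, with adjusted p of up to 0.264, and that of eIF1A also without wild-type library 1 or either mutant 1 library. Of this list 9 were called higher without mutant 2 library 1 and 6 without mutant 2 library 2. None of 75 mitochondrial ribosomal protein genes or 35 proteasome genes was called, and their medians were 0.05 and 0.02.

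**Figure D3:**
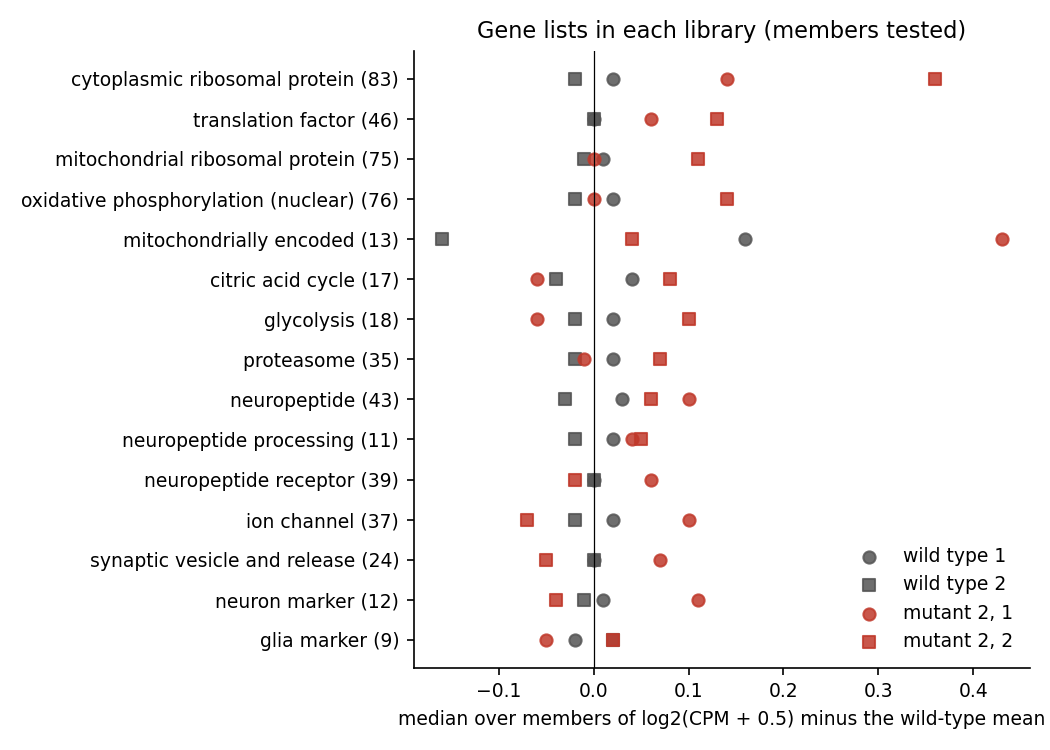
Points give, for each brain library, the median over the tested members of a gene list (number in brackets) of log2(CPM + 0.5) minus the wild-type mean, with wild type in grey and mutant 2 in red. Cytoplasmic ribosomal protein genes lie at 0.14 and 0.36 in the 2 mutant 2 libraries, oxidative phosphorylation genes at 0.00 and 0.14, and neuropeptide genes at 0.10 and 0.06.

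Energy genes showed no called change in the nuclear subunits of oxidative phosphorylation. Of 91 such genes in the table, 76 were tested, none was called in either direction, and the median log2 change was 0.06, with 58 above 0. The median differed between the libraries. The members stood at 0.00 relative to wild type in mutant 2 library 1 and at 0.14 in library 2, and the median log2 change was -0.00 without library 2 and 0.13 without library 1, when 11 were called.

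Among the abundant members, none passed the test. For blw, the ATP synthase alpha subunit, the level was 1044 and 1001 CPM in wild type and 1003 and 1113 CPM in mutant 2. For ATPsynC, which forms the rotating ring of the enzyme, it was 1093 and 1036 CPM against 935 and 1002 CPM, with a log2 change of -0.14 ± 0.06 (adjusted p = 0.438) and both mutant 2 libraries below both wild-type libraries. ATPsynbeta and ND-75, a subunit of complex I, had changes of -0.02 and 0.06. The 13 genes tested of the mitochondrial genome had a median of 0.24 with none called. Their summed level was 9334 and 8638 CPM in wild type and 11750 and 9019 CPM in mutant 2, so the high library here was library 1, the opposite of the nuclear subunits. The median was 0.39 with 5 called without mutant 2 library 2 and 0.39 with 3 called without wild-type library 1. With wild-type library 2 left out it was 0.13 and with mutant 2 library 1 left out 0.04, and none was called in either case.

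None of 17 citric acid cycle genes was called. Their median log2 change was 0.01, and it was 0.08 without mutant 2 library 1 and -0.06 without mutant 2 library 2. The median of the glycolysis genes was 0.02, and in the same cases 0.10 and -0.06. Of 18 glycolysis genes 2 were higher, both at low level, where 2.23% of all genes tested were called higher. Ldh, lactate dehydrogenase, went from 3.15 and 3.21 CPM to 4.73 and 5.51 CPM (0.69 ± 0.14, adjusted p = 0.0337), and Hex-C, a hexokinase, from 5.82 and 4.78 CPM to 8.47 and 8.20 CPM (0.65 ± 0.12, adjusted p = 0.0234). Leaving out wild-type library 2 or mutant 1 library 2 ended both calls, and that of Ldh also ended without wild-type library 1, mutant 1 library 1 or mutant 2 library 2, with adjusted p of up to 0.205. The abundant glycolytic enzymes were close to wild type, such as Ald1 at 1216 and 1200 CPM against 1145 and 1238 CPM.

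Neuropeptide genes were little changed as a group. Of 51 in the table, 43 were tested, and the median log2 change was 0.07. Of the 43, 1 was higher and none lower, beside 2.23% and 0.729% of all genes tested. The called member was Lst, limostatin, a peptide hormone of the corpora cardiaca that restrains insulin release. It measured 2.41 and 1.82 CPM in wild type and 6.07 and 5.61 CPM in mutant 2 (1.46 ± 0.20, adjusted p = 0.00378). The groups did not overlap, and the call held in each alternative. In mutant 1, against the same wild-type libraries, Lst measured 5.88 and 4.25 CPM.

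Other genes of the glands attached to the brain were read beside it. Akh, adipokinetic hormone of the corpora cardiaca, measured 3.25 and 7.10 CPM in wild type and 8.70 and 9.90 CPM in mutant 2, and its change of 0.84 did not pass the test (adjusted p = 0.589). The juvenile hormone enzyme gene jhamt, of the corpora allata, went from 1.32 and 1.66 CPM to 2.97 and 2.67 CPM (0.92 ± 0.19, adjusted p = 0.0392). Its call was lost without either wild-type library, mutant 2 library 1 or either mutant 1 library (adjusted p of up to 0.268). The summed level of the 3 gland markers tested was 4.96 and 8.94 CPM in wild type and 11.9 and 12.9 CPM in mutant 2. The part of the amount of gland tissue in the Lst result was not tested.

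The most abundant neuropeptide genes lay close to wild type. The short neuropeptide F gene sNPF measured 290 and 296 CPM in wild type and 311 and 294 CPM in mutant 2. Nplp1 measured 284 and 272 CPM against 297 and 292 CPM, with a log2 change of 0.08 ± 0.05 (adjusted p = 0.625). Ms, myosuppressin, and Dh44, a diuretic hormone, had changes of 0.11 and 0.07. Both mutant 2 libraries lay above both wild-type libraries for 17 of the 43 members, beside 20.5% of all genes tested. The median log2 change of the list was 0.11 without mutant 2 library 2 and 0.06 without mutant 2 library 1. It was 0.12 without wild-type library 1 and 0.06 without wild-type library 2. The largest uncalled changes among peptides over 10 CPM included Crz, corazonin, at 15.7 and 16.9 CPM against 21.2 and 19.9 CPM (0.33, adjusted p = 0.0541), and Orcokinin at 30.3 and 30.1 CPM against 39.8 and 35.3 CPM (0.31, adjusted p = 0.137).

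Of 39 neuropeptide receptor genes, SPR, the sex peptide receptor, was the member called, where 0.729% of all genes tested were called lower. It measured 143 and 144 CPM in wild type and 123 and 114 CPM in mutant 2 (-0.28 ± 0.05, adjusted p = 0.0302). That call was lost without either wild-type or either mutant 1 library (adjusted p of up to 0.214). DESeq2 called 1 receptor gene higher and 1 lower. None of 11 peptide processing genes was called with all libraries in the fit. Of the other neural lists, none of 37 ion channel genes, 24 synaptic release genes, 23 transmitter genes, 12 clock genes, 12 neuron markers or 9 glia markers was called, and their medians lay between -0.02 and 0.05. DESeq2 called 1 synaptic release gene and 1 clock gene higher and 1 glia marker lower. Single libraries gave some calls in these lists. Leaving out mutant 2 library 2, 6 ion channel genes, 1 synaptic release gene and 1 neuron marker were higher and 1 glia marker lower. Leaving out mutant 2 library 1 instead, 2 ion channel genes, 4 synaptic release genes, 1 transmitter gene and 1 glia marker were lower. Without wild-type library 1, 1 transmitter gene was higher.

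Transcript length moved with the difference between the mutant 2 libraries. Across 7347 genes with a mean of at least 5 CPM, the difference between mutant 2 libraries 2 and 1 had a Spearman rho of -0.35 with transcript length, given as a description, while the same difference between the wild-type libraries had a rho of -0.04. Genes were divided by length into 5 equal groups. The group with the shortest transcripts, 288 to 1354 bases, stood at 0.080 relative to wild type in mutant 2 library 2 and at 0.009 in library 1. The group with the longest stood at -0.041 and 0.025. Ribosomal protein and oxidative phosphorylation genes have short transcripts, with median lengths of 887 and 804 bases. The mitochondrially encoded genes are as short, with a median of 789 bases, but stood at 0.43 in library 1 and 0.04 in library 2, the reverse order. With a length trend removed from each library, an alternative chosen after seeing the data, the ribosomal median was 0.21 with 11 called and the oxidative phosphorylation median -0.00.

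**Figure D4:**
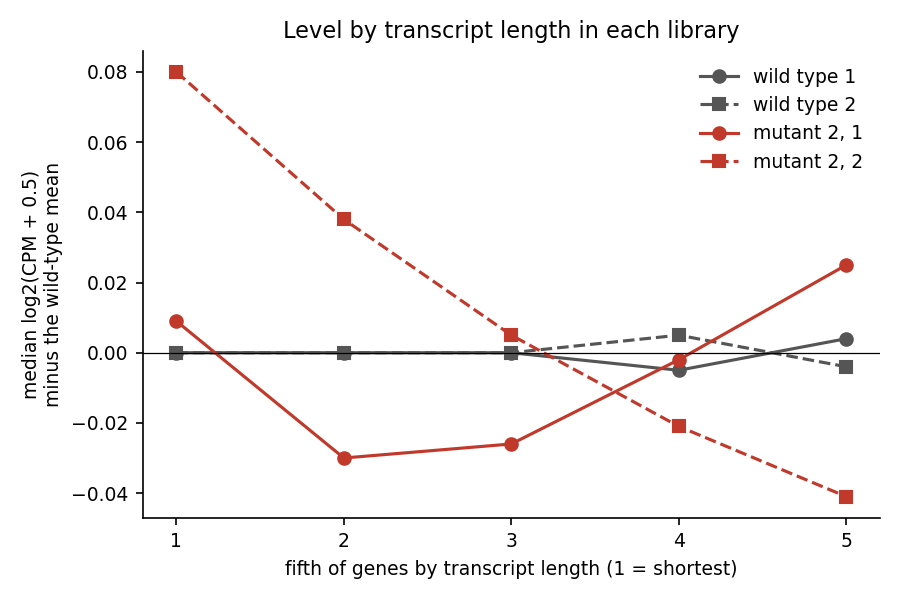
Lines give the median log2(CPM + 0.5) minus the wild-type mean over genes in each of 5 transcript length groups, from shortest to longest, for the 2 wild-type (grey) and 2 mutant 2 (red) brain libraries. Mutant 2 library 2 falls from 0.080 in the shortest group to -0.041 in the longest, while the wild-type libraries stay between -0.005 and 0.005.

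Among the lower genes, blood cell and basement membrane genes were grouped. Of 12 hemocyte markers tested, 7 fell, none rose, and the median log2 change was -0.60. Among all genes tested, 0.729% were called lower. The phagocytic receptor gene eater measured 21.7 and 18.1 CPM in wild type and 9.48 and 8.76 CPM in mutant 2 (-1.13 ± 0.12, adjusted p = 0.00085). NimC2, a receptor of the Nimrod family, measured 22.3 and 20.9 CPM against 11.4 and 8.81 CPM (-1.10 ± 0.14, adjusted p = 0.00334). Hml, hemolectin, a clotting protein made by most larval hemocytes, measured 428 and 368 CPM against 239 and 251 CPM (-0.70 ± 0.07, adjusted p = 0.00086). The scavenger receptor gene Sr-CI fell by 0.71, and NimC1, Col4a1 and vkg were also called.

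The summed level of the hemocyte markers was 3959 and 3536 CPM in wild type and 2662 and 2786 CPM in mutant 2, without overlap. Fewer hemocytes in the dissected tissue and less of these transcripts per cell cannot be told apart in such bulk libraries. The drop was not uniform, since crq and Pxn, which other cells also express, changed by -0.15 and -0.16 without passing the test. Counts of called markers were 7 or 8 in every alternative. PPO1, a prophenoloxidase of crystal cells, measured 116 and 75.6 CPM against 52.3 and 48.9 CPM and did not pass the test (adjusted p = 0.239).

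Of 14 basement membrane genes, 6 fell, beside 0.729% of all genes tested. The 6 included Col4a1 and vkg, the collagen IV chains also counted as hemocyte markers. The laminin alpha gene LanA measured 179 and 163 CPM in wild type and 88.9 and 88.6 CPM in mutant 2 (-0.95 ± 0.06, adjusted p = 1.8e-05). LanB2, the gamma chain, measured 98.0 and 89.7 CPM against 49.4 and 51.6 CPM (-0.90 ± 0.06, adjusted p = 3.8e-05). LanB1, the beta chain, measured 75.4 and 70.0 CPM against 50.0 and 47.2 CPM (-0.58 ± 0.06, adjusted p = 0.00075). All 3 chains of this laminin trimer were therefore lower, with tight replicates. Ppn, papilin, fell by 0.68, and its call was lost without mutant 2 library 1 or 2 (adjusted p of up to 0.15) and with the length trend removed.

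Fat body markers gave 2 lower of 11 tested, where 0.729% of all genes tested were called lower. Lsp1gamma, a larval storage protein, measured 2.25 and 1.96 CPM in wild type and 0.535 and 0.457 CPM in mutant 2 (-2.07 ± 0.27, adjusted p = 0.00318). Fbp1, the receptor for such storage proteins, measured 2.92 and 2.59 CPM against 0.647 and 0.711 CPM (-2.02 ± 0.22, adjusted p = 0.00089). The abundant yolk protein gene Yp1 measured 7225 and 5393 CPM against 4668 and 4305 CPM and did not pass the test (adjusted p = 0.351). The summed level of the list was 24100 and 18880 CPM in wild type and 16430 and 14960 CPM in mutant 2.

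The other large decreases named fell in no single list. They came from called genes with a mean of at least 5 CPM in the higher group and no overlap. Over all 72 lower genes the largest decrease was 3.89 on the log2 scale. Jhbp3 went from 6.93 and 8.96 CPM to 1.92 and 1.70 CPM (-2.13 ± 0.22, adjusted p = 0.00089). Obsc, the giant muscle protein obscurin, went from 63.4 and 64.7 CPM to 18.9 and 24.4 CPM (-1.57 ± 0.11, adjusted p = 0.00028), while none of 12 muscle markers was called. Tep1, a complement-like protein gene, went from 9.69 and 9.17 CPM to 3.84 and 3.51 CPM (-1.36 ± 0.13, adjusted p = 0.00033). Had2, CG4950 and NtR fell by 1.27, 0.99 and 0.81 on the log2 scale. CG15695 fell by 0.80, and the C-type lectin gene lectin-24Db and the Nimrod gene NimB5 by 0.74 each. Those 3 calls were lost without wild-type library 1, with an adjusted p of up to 0.186, that of CG15695 also without wild-type library 2, and that of NimB5 also without mutant 1 library 2 or either mutant 2 library.

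Immune effector genes stood higher on average but varied widely. Of 39 antimicrobial peptide and peptidoglycan recognition genes tested, 37 had a change above 0, the median log2 change was 2.24, and 3 were called. Over all genes tested, 49.8% had a change above 0 and 2.23% were called higher. The 3 were Bomanin genes, which encode short secreted peptides induced through the Toll pathway. BomT3 measured 4.03 and 2.98 CPM in wild type and 18.5 and 17.5 CPM in mutant 2 (2.36 ± 0.22, adjusted p = 0.00301). BomT2 rose by 2.24 and BomT1 by 3.22. The calls of BomT1 and BomT2 were lost without either wild-type library, and those of BomT2 and BomT3 without either mutant 2 library, with adjusted p of up to 0.227.

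Peptide genes of the Imd pathway differed between the mutant 2 libraries. AttA measured 1.97 and 2.84 CPM in wild type and 6.60 and 30.6 CPM in mutant 2, and DptB 0.510 and 0.660 CPM against 1.07 and 11.9 CPM. The summed level of the list was 178 and 154 CPM in wild type, 506 and 753 CPM in mutant 2 and 737 and 336 CPM in mutant 1. The count of 3 calls varied with the libraries fitted and with the tool. It was 13 when only wild type and mutant 2 were fitted and 13 without either mutant 1 library, and DESeq2 called 12. It was 1 without either wild-type library and 2 without mutant 2 library 1. Without mutant 2 library 2 it was 1, with a median of 1.27 and 33 of 40 tested above 0.

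**Figure D5:**
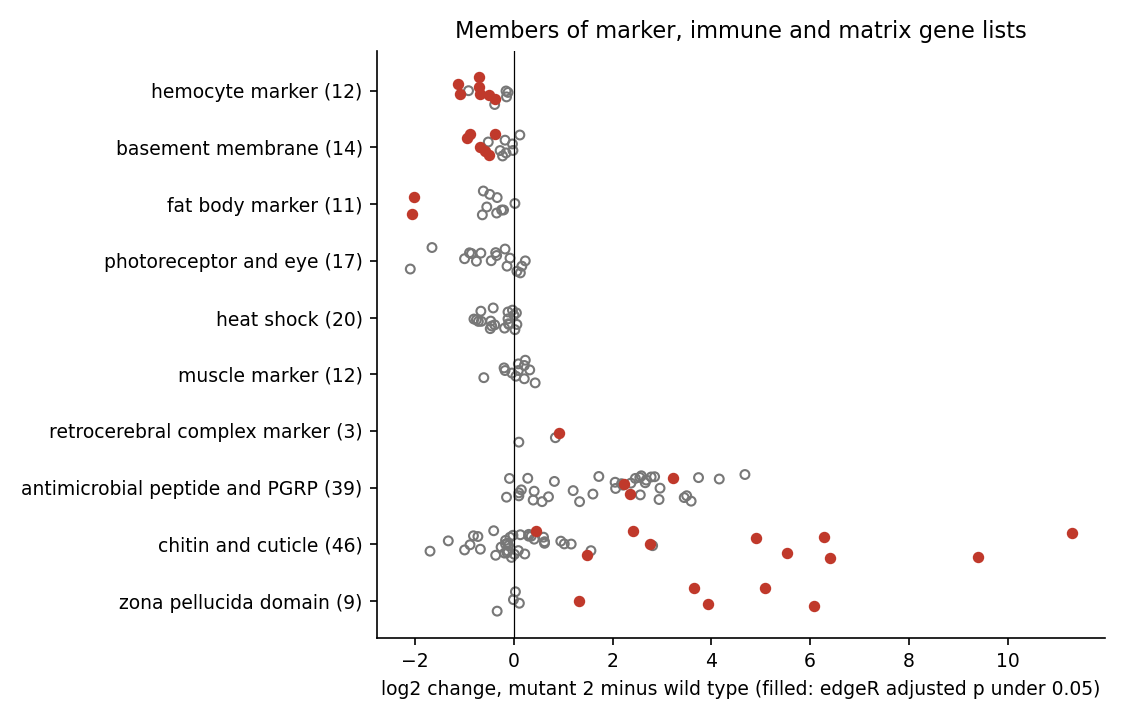
Each point is the log2 change of mutant 2 minus wild type of 1 tested member of a gene list (number tested in brackets; PGRP, peptidoglycan recognition proteins), filled where the edgeR adjusted p was under 0.05. Called hemocyte, basement membrane and fat body members lie below 0, and called immune, chitin and zona pellucida members above it.

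The 2 mutant alleles were compared directly, without the wild-type libraries in the contrast. Of 9880 genes, 4 were called (0.0405%), with 140 higher and 101 lower in mutant 2 at an unadjusted p under 0.05. CG11247 itself was higher in mutant 2 than in mutant 1, by 0.69 (adjusted p = 0.00744). The calcium-binding protein gene CBP measured 1.62 and 1.46 CPM in wild type, 23.3 and 24.5 CPM in mutant 1 and 11.7 and 13.1 CPM in mutant 2, a difference between the mutants of -0.94 ± 0.09 (adjusted p = 0.0214). Both alleles stood above wild type, and mutant 1 stood above mutant 2.

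CG13875 measured 0.881 and 0.887 CPM in wild type, 1.86 and 1.98 CPM in mutant 1 and 0.513 and 0.406 CPM in mutant 2, a difference between the mutants of -2.05 ± 0.24 (adjusted p = 0.0475). CG14861 had 0 counts in wild type and in mutant 1 and 1.38 and 1.07 CPM in mutant 2, at least 35.8-fold above wild type (adjusted p = 0.0475 against mutant 1). This gene could pass the low-count filter only through mutant 2, so its call is a description. No call was left without mutant 1 library 1, 12 were made without mutant 1 library 2, 80 without mutant 2 library 1, 6 without mutant 2 library 2, and 2 without either wild-type library. So few calls do not show that the alleles act alike. Of the genes described above, dpy stood at 1021 and 973 CPM in mutant 1, qsm at 28.7 and 28.4 CPM, LanA at 98.4 and 99.2 CPM and Hml at 270 and 281 CPM. Both alleles were set against the same wild-type libraries.

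In ovary, where other libraries of the same allele were used, 729 of 8312 genes were higher (8.77%) and 611 lower (7.35%). Of the 220 genes higher in brain, 177 were tested in ovary, and 99 of these were also higher there. That is 55.9% of the brain genes tested and 15.2% of the 653 ovary genes that were also tested in brain, and 2 were lower. Genes silent in wild-type ovary, such as CG8172 and NT1, could pass the ovary filter only through a mutant group. Another 43 of the 220 were not tested there, so the shares are a description. Of the 72 genes lower in brain, 46 were tested in ovary, where 8 were lower (17.4%, and 1.37% of the 582 ovary genes) and 6 higher. The 55.9% and 17.4% compare with 8.77% higher and 7.35% lower among all ovary genes tested. The 15.2% and 1.37% compare with 2.23% higher and 0.729% lower among all brain genes tested. The ovary counts were sensitive to single libraries. Without wild-type library 1 or 2 they were 437 and 415 higher and 236 and 209 lower. Without mutant 2 library 1, 2 or 3 they were 494, 408 and 479 higher and 388, 196 and 257 lower.

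Apical matrix genes were also higher in ovary. Among all genes tested in ovary, 8.77% were called higher and 7.35% lower. The counts here are of members tested in both tissues. Of 26 such chitin and cuticle genes 19 were higher in ovary, as were 7 of 8 zona pellucida genes. Members silent in wild-type ovary, such as dyl and nyo, could pass the ovary filter only through a mutant group, so these counts are a description. The dpy change in ovary was 4.55, that of exp 5.38 and that of f 3.60. Ribosomal protein genes went the other way in ovary, with 17 of 83 lower, none higher and a median of -0.16. Oxidative phosphorylation genes gave 21 lower of 71, with a median of -0.22.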

How the data were processed

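For each tissue the authors deposited 1 table of estimated counts by gene, not normalized. Trim Galore 0.6.2, Salmon 1.2.1 and build dm3 are named in the submitters' processing notes. Per the labels' protocols, RNA was depleted of ribosomal RNA and libraries kept the strand. The sources used here do not state whether the counting was stranded, and overlapping genes and near-identical copies, among them some ribosomal protein and GstD genes, are uncertain. Of 13955 gene identifiers, 58 matched no name in the BDGP6 annotation or RefSeq. Names, arms and transcript lengths come from those, with no dm3 coordinates. Estimated counts (9.73% of brain values not whole) were rounded. No value column lacked a sample.

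All 6 brain libraries entered 1 edgeR 4.0.16 quasi-likelihood fit (R 4.3.3; TMM, edgeR's low-count filter, robust dispersions), and the 9 ovary libraries another. Calls used a Benjamini-Hochberg adjusted p under 0.05 over all genes. CPM are TMM-scaled. SE is the absolute log2 change over the square root of F. Genes with 0 wild-type counts were set against 3 counts over the group, and those with 1 to 3 counts have 95% exact counting intervals, both for counting error only. No replicate pair was a duplicate, since chi-square values divided by their degrees of freedom were 13.5 to 28.0.

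Members and the 31 gene lists were chosen with earlier results of these data known, so lists carry no p. Named genes were the 15 per direction with the largest changes (called, mean of at least 5 CPM in the higher group, no overlap), up to 4 called members per list and direction, the 4 most abundant ribosomal, oxidative phosphorylation and neuropeptide genes, genes called between mutants, and CG11247. Other genes named were chosen after their values were seen. 1 gene that the rule chose is not reported here. Alternatives were RLE size factors, other filters, DESeq2 1.42.0, 2 groups only, unrounded counts, a replicate block, each library left out, and a length trend (added after seeing the data). S2 cell data were not used here.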

Additional observations from a re-analysis of the deposited data

Results flagged for a closer look

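Differences between the mutant alleles passed the direct test for 4 genes in brain. The log2 difference of mutant 2 minus mutant 1 was 0.69 for CG11247, -0.94 for CBP and -2.05 for CG13875. CG14861 had a mean of 1.23 CPM in mutant 2 and 0 counts in mutant 1 and wild type, and could pass the low-count filter only through mutant 2. CBP lost its call without either mutant 1 library, CG11247 without mutant 1 library 1, and CG14861 and CG13875 in several alternatives. With 4 calls among 9880 genes, each rests on few libraries.

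For 6 named genes every mutant 2 library moved one way against wild type in brain and the opposite way in ovary. The difference between tissues was not tested. Hml, lower in brain, had an ovary change of 1.41 (adjusted p = 0.00766), and Ppn, also lower in brain, one of 1.24 (adjusted p = 0.00528). Lsp1gamma was lower in brain and had an ovary change of 0.77 (adjusted p = 0.142). eEF1beta was higher in brain and had an ovary change of -0.29 (adjusted p = 0.0461). RpL3, with a brain change of 0.25 that did not pass the test (adjusted p = 0.168), had an ovary change of -0.29 (adjusted p = 0.0272). CG13875, with a brain change of -0.93 (adjusted p = 0.128), had an ovary change of 1.07 (adjusted p = 0.0932).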

How the results depend on the processing

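The number of genes higher was 197 to 315 and lower 68 to 95 over the alternatives that kept every library, with DESeq2 calling the most. Without the mutant 1 group the numbers were 216 and 58. In that fit 7 named genes lost their calls, namely CG11247, SPR, Ldh, RpL35A, RpL5, eIF1A and jhamt. Leaving out 1 library at a time gave 122 to 397 higher and 36 to 142 lower, and 0 to 80 calls between mutants. It gave medians of 0.14 to 0.36 for ribosomal protein genes, -0.00 to 0.13 for oxidative phosphorylation genes and 0.06 to 0.12 for neuropeptide genes, and in ovary 408 to 620 higher and 196 to 587 lower. Calls between mutants were 12 with DESeq2, 7 with the replicate block and 2 with the length trend removed. DESeq2 called 38 ribosomal protein genes. The cause was not tested. Leaving out 1 mutant 2 library moved the change of RpL22 between -0.03 and 0.17, of Dh44 between -0.07 and 0.19, of blw between -0.03 and 0.12, of ND-75 between -0.10 and 0.21 and of ATPsynbeta between -0.06 and 0.01, so that their signs turned. None of these passed the test with all libraries. Same-numbered brain libraries of wild type and mutant 2 deviated with a correlation of -0.06, and those of mutant 1 and mutant 2 of -0.01. The numbers were therefore not taken as pairs for mutant 2. Those of wild type and mutant 1 had a correlation of 0.56, so these libraries shared part of their deviations. The source of this was not tested. The replicate block gave 248 higher and 88 lower in brain, 750 and 645 in ovary, 6 called fat body markers and 3 clock genes higher. Depth limits the folds of genes with 0 to 3 wild-type counts, as their intervals show.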

Other observations

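Genes of epidermal identity and tissue polarity, chosen after their values were seen, were also among those higher in mutant 2 brains. The Grainy head gene grh, a transcription factor of epidermis and its barrier, measured 4.17 and 4.55 CPM in wild type and 58.7 and 55.3 CPM in mutant 2 (log2 change 3.71, edgeR adjusted p = 1.47e-08). The cadherin gene ds (dachsous), a ligand of Fat in planar polarity, measured 4.47 and 3.94 CPM against 42.8 and 39.8 CPM. Its regulator lft (lowfat) measured 1.53 and 1.48 CPM against 67.1 and 63.9 CPM (5.44, adjusted p = 1.45e-09). Dlish and Fbxl7, which act downstream of Fat, had log2 changes of 4.14 and 2.22, while the change of ft itself was 0.23 and did not pass the test (adjusted p = 0.595). The apical surface genes sas and uif rose by 3.99 and 2.27. The bristle protease gene Sb measured 0.116 and 0.0455 CPM against 2.99 and 3.48 CPM, and the labels list a balancer marked with an Sb allele in the mutant stocks. The sources used here do not state whether the dissected females carried it, and its part in the Sb level was not tested.

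Called genes were spread over the chromosome arms. The share called was 2.7% on 3L, which carries CG11247, 3.33% on 3R, 2.86% on 2L, 3.37% on 2R and 2.44% on X, and none of 76 genes tested on chromosome 4 was called.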
